A study of Mus musculus with 6 samples.

Results

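Toll-like receptors are membrane proteins that bind microbial molecules, and each one passes its signal on through an adaptor protein. Tlr2 and Tlr4 bind bacterial lipoproteins and lipopolysaccharide and signal through Myd88, Tlr3 binds double-stranded RNA in endosomes and signals through Ticam1 (TRIF), and Tlr4 can use either adaptor. The Ticam1 branch activates Irf3, a transcription factor present before any signal, and the interferon made in response raises Irf7, Isg15 and Ifit1, which are classical interferon-stimulated genes. Airway epithelial cells, which meet inhaled microbes and viruses, carry several of these receptors. Wdfy1 encodes a protein that brings Ticam1 to Tlr3 and Tlr4.

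The 9 genes Tlr2, Tlr3, Tlr4, Ticam1, Myd88, Irf3, Irf7, Isg15 and Ifit1 were taken by symbol from a table of 20483 genes, and all 9 were present. They were followed in 23871 single cells from primary tracheal epithelial cultures of 12-week-old C57BL/6 mice, grown at an air-liquid interface (ALI). Such cultures hold basal, secretory and multiciliated cells, as the airway does. One group was 3 WT/WT mice (WT1, WT2 and WT3) and the other 3 MIS/MIS littermates (MT1301, MT1306 and MT1383), which carry a missense change, introduced by genome editing, on both copies of Dnaaf5, a cytoplasmic factor that helps to assemble the motor proteins of motile cilia. No agent was added to either group, so the levels below are those of unstimulated cultures kept for weeks, without leukocytes added. The question was where these genes are transcribed and whether they differed between genotypes as Wdfy1 did.

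Each mouse gave 1 library of 2673 to 6710 cells, with a median of 21328 to 35383 UMIs (unique molecular identifiers, counted molecules of RNA) per cell. MT1383 had the most cells and the lowest median, and 67 of 23804 distinct cell barcodes were found in more than 1 mouse. The authors' 16 cell types were used as deposited, and each of 15 markers of basal, secretory, multiciliated, neuroendocrine and ionocyte cells was highest in a type of its own name. Basal4 cells made up 57.1% of the basal cells of WT1 and 0.0550 to 11.02% in the other mice, and 4 fibroblast markers summed to 87.1 CPM (UMIs per 1000000 UMIs) in the basal cells of WT3 and to 0.108 to 0.314 CPM in those of the other 5 mice. Collagen UMIs lay in 31 of 1515 basal cells of WT3, and without them Isg15 in these cells was 125.2 CPM against 124.6 CPM with them. Of 8 leukocyte markers 7 were measured, none at 0, and they summed to 8.60 to 40.3 CPM per mouse and class, mostly from Cd68, a lysosomal protein that epithelial cells also transcribe. Ptprc, which defines leukocytes, had 22 UMIs in the whole table.

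Positions are given on GRCm38, the build also called mm10. Tlr2 is on chromosome 3 (83836272 to 83841767, minus strand), Tlr3 on chromosome 8 (45395665 to 45411080, minus strand) and Tlr4 on chromosome 4 (66827584 to 66930284, plus strand). Ticam1 is on chromosome 17 (56269319 to 56276786, minus strand) and Myd88 on chromosome 9 (119335934 to 119341411, minus strand). Irf3 (44997648 to 45002848, plus strand) and Irf7 (141262706 to 141266481, minus strand) are both on chromosome 7. Isg15 is on chromosome 4 (156199424 to 156200818, minus strand) and Ifit1 on chromosome 19 (34640871 to 34650009, plus strand). Tlr3, Myd88, Irf3 and Irf7 overlap other annotated genes, namely Gm45542, Slc22a14 and Acaa1a, Bcl2l12, and Phrf1. Of these, Slc22a14 is on the same strand as Myd88.

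Interferon acts on promoters through the interferon-stimulated response element. Its core was searched as GAAANNGAAA on both strands in the 250 bases before each gene's start, from RefSeq promoters of GRCm38.p6, which hold 8 of the 9 genes. It was found in 3 of them, in 16 of 32 promoters of other interferon-stimulated genes fixed as a list, and in 3.04% of all 27025 promoters. These 3 stretches are shown because they separate genes with the letters of the element from the other receptors and factors. Capitals mark the matches.
Isg15: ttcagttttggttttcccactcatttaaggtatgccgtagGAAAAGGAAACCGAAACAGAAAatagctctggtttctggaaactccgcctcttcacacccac
Ifit1: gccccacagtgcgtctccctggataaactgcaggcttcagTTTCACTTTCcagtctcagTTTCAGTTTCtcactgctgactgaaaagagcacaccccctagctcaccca
Myd88: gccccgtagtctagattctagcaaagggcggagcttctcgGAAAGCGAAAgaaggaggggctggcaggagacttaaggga
The Isg15 stretch (chr4:156200835-156200936, minus strand) holds 3 overlapping matches that begin 78, 72 and 66 bases before the start. The Ifit1 stretch (chr19:34640745-34640853, plus strand) holds 2 on the opposite strand, 104 and 85 bases before it, and the Myd88 stretch (chr9:119340019-119340098, minus strand) holds 1, at 40 bases. Distances are counted from RefSeq's start. For Myd88 and Tlr3 the whole window lies inside the GENCODE gene given above, which reaches farther on that side, and for Tlr2, Ticam1, Irf7 and Ifit1 a part of it does. The searched windows of Tlr2, Tlr3, Ticam1, Irf3 and Irf7 did not hold these letters.

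The receptors were transcribed in different cell types. Tlr2 was highest in Basal1 cells, at 5.81 ± 1.23 CPM (SD, n = 6 mice), followed by Basal7 at 4.24 ± 1.23 CPM (n = 5). It was low in several types, with 12 UMIs in 857 Multiciliated2 cells and none in 146 Multiciliated4 cells or 28 ionocytes. A count of 0 allows a share of cells with a Tlr2 UMI of up to 2.05% and 10.7% in the last pair, for counting error only. Tlr3 was highest in Basal7 and Basal8 cells, at 35.8 ± 11.3 and 33.1 ± 8.62 CPM (n = 5 each), and lowest in Multiciliated4 cells, at 2.64 ± 4.33 CPM (n = 5). Tlr4 had another order, with 17.6 ± 1.92 CPM in Multiciliated3 cells and 3.17 ± 0.91 CPM in Basal1 cells (n = 6 each), where Tlr2 was highest. In Multiciliated3 cells the 6 mice lay between 15.2 and 20.1 CPM of Tlr4, and in Basal1 cells between 1.84 and 3.87 CPM, so these ranges did not overlap. Of the other Toll-like receptors, 3 were measured, and they were near the limit of detection, with 57 UMIs of Tlr1, 111 of Tlr5 and 34 of Tlr6 in all cells. Tlr7, Tlr8, Tlr9, Tlr11, Tlr12 and Tlr13 were absent from the genes given and have no level here.

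The adaptors were more even over the 14 types with 3 or more mice. Ticam1 ranged from 3.91 ± 1.18 CPM in Multiciliated2 cells to 10.1 ± 2.36 CPM in Multiciliated3 cells, a 2.57-fold range, and the pooled 28 ionocytes, with 11 UMIs, were at 15.9 CPM. Myd88 ranged 2.41-fold, from 7.996 ± 1.27 CPM in Multiciliated2 to 19.2 ± 2.04 CPM in Secretory2 cells (n = 6 each). Irf3 lay between 23.5 and 33.1 CPM in all 10 basal and secretory types, and was higher in Multiciliated3 (39.8 ± 3.82 CPM) and Multiciliated2 cells (59.5 ± 5.85 CPM, n = 6 each). The other multiciliated types were not higher. Multiciliated4 was the lowest of the 14 types (18.6 ± 7.60 CPM, n = 5), and Multiciliated1 ranked just below Secretory2. In Multiciliated2 every mouse, at 53.1 to 70.6 CPM, was above every mouse of Multiciliated3, at 34.7 to 44.2 CPM.

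The interferon-stimulated members also differed between cell types, within and beyond the basal types. Isg15, a ubiquitin-like protein that is coupled to other proteins after interferon, reached 210.4 ± 104.6 CPM in Basal1 and 143.6 ± 63.8 CPM in Basal7 cells, against 17.1 ± 7.09 CPM in Basal3 and 16.1 ± 6.48 CPM in Secretory2 cells. Irf7, the factor that amplifies interferon transcription, was highest in the same types, with 57.9 ± 28.5 CPM in Basal1, 49.6 ± 14.4 CPM in Basal7 and 9.41 ± 3.79 CPM in Basal3 cells. In all 6 mice Isg15 was higher in Basal1 than in Secretory2 cells and Irf7 higher in Basal1 than in Basal3 cells. Ifit1, which binds foreign RNA, was highest in Secretory1 (357.7 ± 52.0 CPM) and Multiciliated1 cells (343.3 ± 89.0 CPM) and lowest in Basal4 cells (51.5 ± 11.4 CPM, n = 4). The clusters were made from these cells, so such levels are descriptions, with no test. Of the 13 pairs of neighbours in each gene's order over the 14 types with 3 or more mice, 12 or 13 had overlapping ranges over mice.

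**Figure D1:**
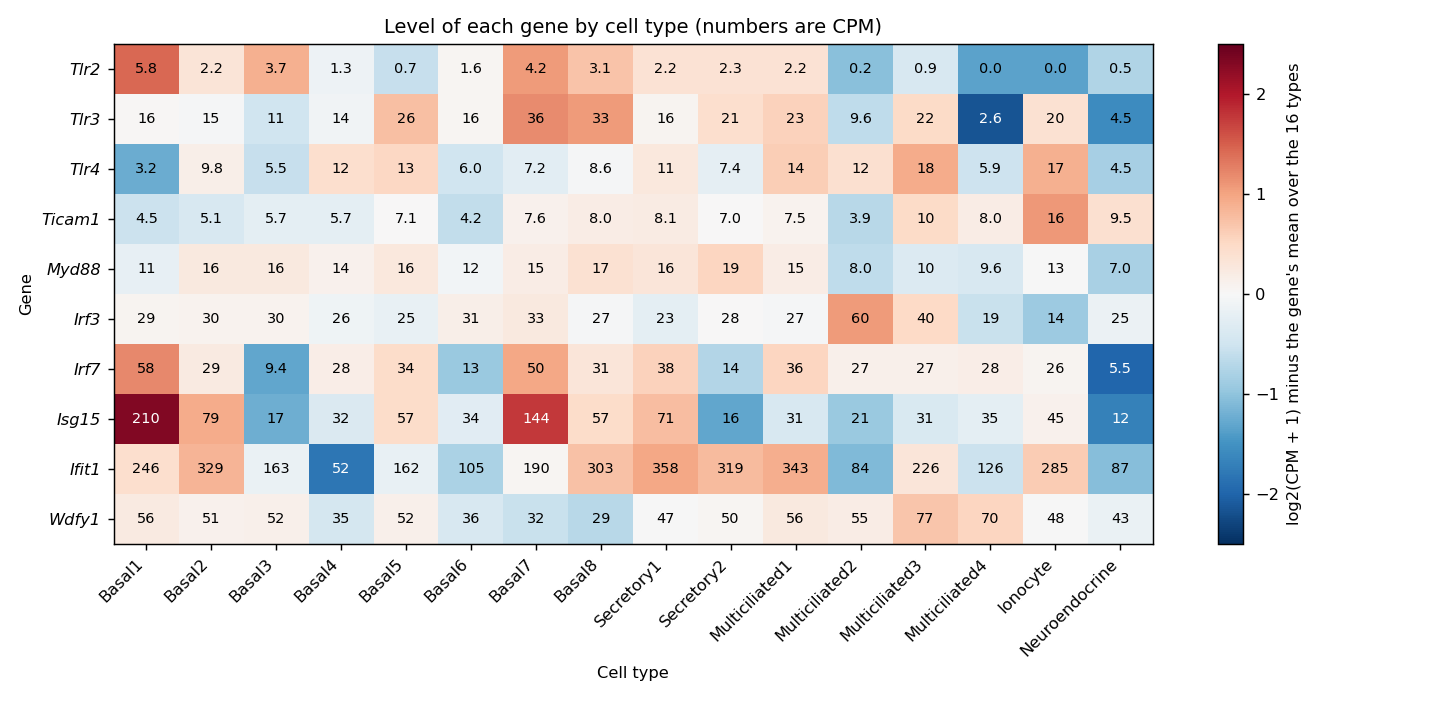
Level of the 9 genes and Wdfy1 (rows) in the 16 cell types (columns). Numbers are the mean CPM over mice with at least 20 cells of the type, or of the pooled cells for ionocytes and neuroendocrine cells, and colour is log2(CPM + 1) minus the gene's mean over types. Isg15 and Irf7 are reddest in Basal1 and Basal7, Irf3 in Multiciliated2, and Tlr4 and Tlr2 are high in different types.

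The share of cells with at least 1 UMI was taken over the cells of all mice pooled. Each cell was first thinned to 5000 UMIs, since the median depth of a type ranged from 10197 UMIs in Multiciliated4 to 42985 in Basal8 cells. MT1383 gave 1295 of 2269 Basal2 and 604 of 1108 Multiciliated1 cells, and WT1 gave 1048 of 1365 Basal4 cells. These shares therefore mix cell type with mouse and are descriptions. Isg15 was then detected in 41.0% of Basal7, 33.3% of Basal2 and 30.9% of Basal1 cells (76.7%, 65.8% and 55.3% unthinned) and in 4.91% of neuroendocrine cells (10.4% unthinned). No type in the table is known to lack these genes, so the lowest share stands in as the background. Ifit1 was detected in 74.9% of Multiciliated1 and 74.2% of Secretory1 cells, against 13.3% of Basal4 cells. Tlr2 was detected in at most 3.30% of thinned cells, in Basal1. Isg15 UMIs were concentrated in few cells, with 26.4% of them in the richest 239 cells, 1% of all, and up to 272 UMIs in 1 cell. For Tlr2 the corresponding share was 32.1%, of a total of only 1735 UMIs, for Irf7 15.1% and for Irf3 6.60%.

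The genes whose level over the 16 cell types was most like that of Irf7 were Dhx58, a regulator of RNA sensors (Pearson r = 0.89), and Oasl2, an interferon-stimulated gene (r = 0.83), among 13111 genes compared on log2(CPM + 1). For Isg15 they were Irf7 itself (r = 0.82) and Capzb (r = 0.81). For Ifit1 they were Slco4c1 (r = 0.87) and Atp1b1 (r = 0.86). For Tlr2 they were Nfkbie, an inhibitor of NF-kB (r = 0.89), and Plcg1 (r = 0.89), for Tlr3 Lamb2 and Usp25 (r = 0.91 each), and for Tlr4 Prkaa2 (r = 0.84) and Cpm (r = 0.82). For Ticam1 they were Adhfe1 (r = 0.88) and Fbxo33 (r = 0.87), for Myd88 Mocs1 (r = 0.95) and Fmo2 (r = 0.93), and for Irf3 Mtss2 and Smarcd2 (r = 0.91 each). These correlations run over 16 types that share libraries and depth and were the highest of all genes compared, and they are given as descriptions.

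Cells with Isg15 held more Irf7 and Ifit1 than cells without it, to a degree that differed between the types compared. In the largest type of each class, cells with an Isg15 UMI were compared with cells without one in the same mouse, all thinned to 5000 UMIs. In Basal1 the cells with Isg15 held more Irf7 in 6 of 6 mice (76.6 to 209.2 CPM against 5.94 to 50.4 CPM, a median ratio of 5.27) and more Ifit1 in 6 of 6 (232.9 to 833.2 CPM against 17.8 to 110.1 CPM, a median ratio of 7.92). In Multiciliated3 the median ratios were 3.04 for Irf7 and 2.96 for Ifit1, again above 1 in 6 of 6 mice, though with only 10 to 139 cells with Isg15 per mouse. In Secretory1 they were smaller, at 1.68 and 1.21, and above 1 in 6 of 6 mice. The Secretory1 cells without Isg15 held 260.7 to 385.7 CPM of Ifit1, so Ifit1 was not confined to cells with Isg15. Tlr3 was also higher in the Basal1 cells with Isg15, in 6 of 6 mice with a median ratio of 2.85, but in 3 of 6 mice in Multiciliated3 and 4 of 6 in Secretory1. Irf3 was higher in 4, 3 and 2 of 6 mice in these types in the same order, with median ratios of 1.20, 1.06 and 0.94. Wdfy1 was higher in 6, 5 and 4 of 6 mice, with median ratios of 1.30, 1.39 and 1.07.

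**Figure D2:**
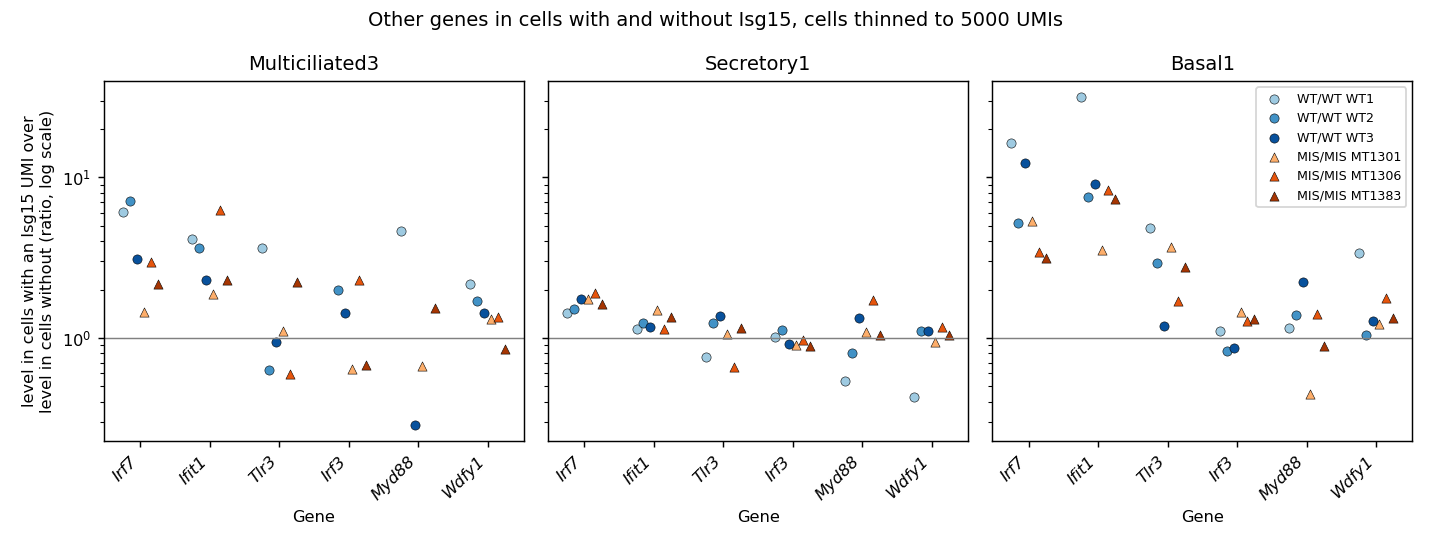
Level of 6 genes in cells with an Isg15 UMI divided by the level in cells without one (vertical, log scale), for the largest type of each class, with 1 point per mouse (circles WT/WT, triangles MIS/MIS) and ratios of 0 not drawn. Irf7 and Ifit1 lie above 1 in all 6 mice in each type and farthest above it in Basal1, and Irf3 and Myd88 scatter around 1.

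For the comparison of genotypes, UMIs were summed per mouse over the multiciliated, secretory and basal cells, and limma with voom weights was fitted to all genes. Wdfy1 was the gene called in multiciliated cells (1 of 14206 genes, 0.00704%) and in secretory cells (1 of 13610, 0.00735%), and no gene was called in basal cells (0 of 14615, 0%). Counts at an unadjusted p under 0.05 were 614, 258 and 334 genes. In multiciliated cells Wdfy1 was at 25.2, 31.7 and 28.6 CPM in WT1, WT2 and WT3 and at 100.2, 107.5 and 110.6 CPM in MT1301, MT1306 and MT1383. Its log2 fold change was 1.87 (95% interval 1.64 to 2.09, limma adjusted p = 0.000864). It was 1.68 (1.38 to 1.97, limma adjusted p = 0.0292) in secretory cells, a call that was lost when any 1 mouse was left out, and 1.71 (1.31 to 2.11, limma adjusted p = 0.426) in basal cells.

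None of the 9 genes was called in any of the 3 classes, with adjusted p from 0.896 to 1.00 by limma over all genes tested and all 9 past the filter on low counts. Of their 27 fold changes, 14 were above and 13 below 0. Apart from Tlr2 in multiciliated cells, they lay between -0.15 and 0.36 on the log2 scale. The median over the 9 was 0.05 in multiciliated, -0.01 in secretory and 0.07 in basal cells, against 0.0066, -0.0044 and -0.0069 over all genes tested. The mice of the 2 genotypes did not overlap for 1 of the 9 in multiciliated cells, where this held for 10% of all genes tested, and for 0 of 9 in secretory and basal cells, where it held for 5.5% and 7.96%.

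**Figure D3:**
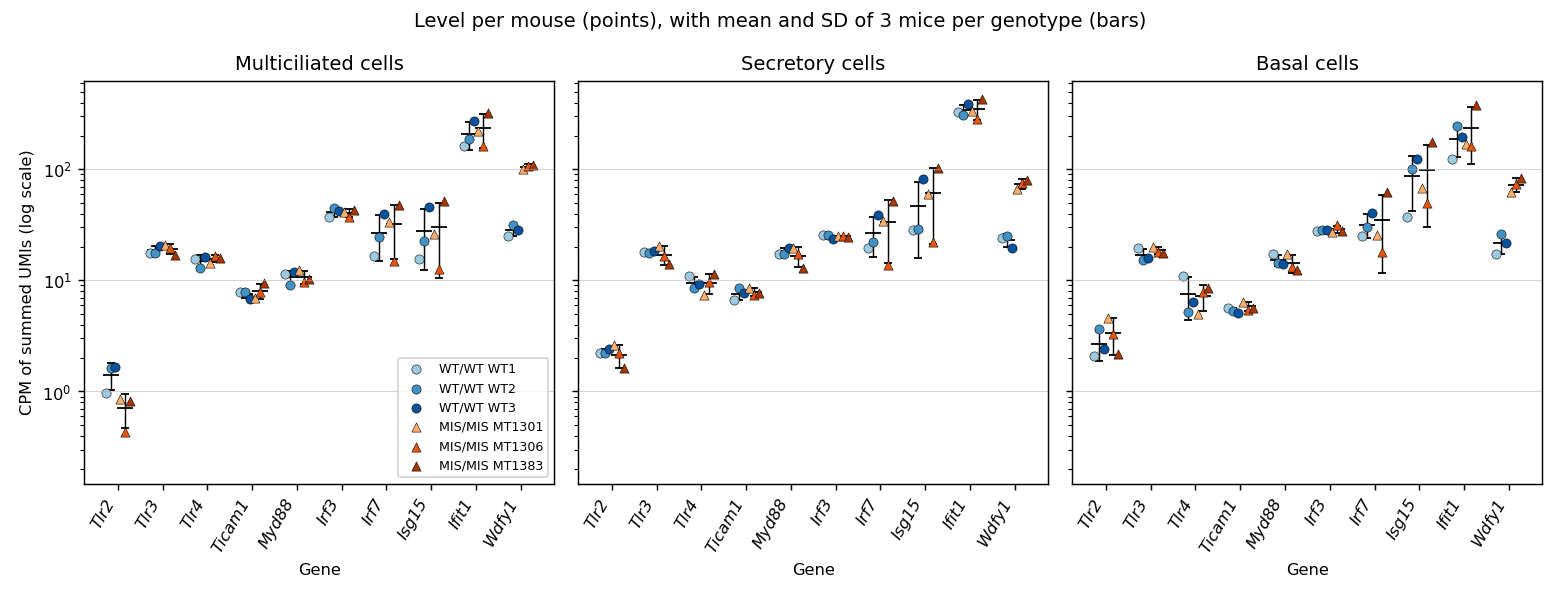
CPM of each gene in the summed multiciliated, secretory and basal cells (vertical, log scale), with 1 point per mouse and bars for the mean and SD of 3 mice per genotype. Wdfy1 is separated by genotype in each class, and Isg15, Irf7 and Ifit1 spread widely within both genotypes.

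Irf3 was among the genes least spread between mice in secretory and basal cells. Irf3 in secretory cells was at 25.8, 25.7 and 23.6 CPM in the WT/WT mice and at 24.9, 25.3 and 24.6 CPM in the MIS/MIS mice (log2 fold change -0.01, 95% interval -0.16 to 0.15). The genotypes overlapped, and the SD of Irf3 between mice of a genotype was at the percentile 3.27 of all genes tested. Tlr3, the receptor that signals with Ticam1 and Wdfy1, was at 17.8, 17.8 and 20.5 CPM in WT/WT and at 21.0, 19.4 and 17.0 CPM in MIS/MIS multiciliated cells (log2 fold change -0.02, 95% interval -0.30 to 0.26). Ticam1 was at 7.84, 7.80 and 6.84 CPM and at 6.97, 7.92 and 9.45 CPM in the same cells (0.13, 95% interval -0.24 to 0.50), with the genotypes overlapping. For Tlr4 and Myd88 in multiciliated cells the differences were 0.05 (-0.23 to 0.33) and -0.03 (-0.37 to 0.32). A change of the size of Wdfy1's lay outside these intervals. Tlr4 was less even in basal cells, at 11.1 CPM in WT1 and 5.01 to 8.62 CPM in the other 5 mice. WT1 is the mouse whose basal cells were mostly Basal4, a type with 12.2 ± 1.98 CPM of Tlr4, and the part of this makeup was not tested.

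Tlr2 was the gene of the 9 with a difference past an unadjusted p of 0.05. In multiciliated cells it was at 0.961, 1.63 and 1.67 CPM in the WT/WT mice and at 0.860, 0.433 and 0.827 CPM in the MIS/MIS mice. The genotypes did not overlap, and the log2 fold change was -1.03 (95% interval -1.84 to -0.21, unadjusted p = 0.0196 and adjusted p = 0.896 by limma). These levels rest on 10 to 44 UMIs per mouse. The basal keratins were lower in the same cells, Krt5 at 16.3 to 21.1 CPM in WT/WT and 4.71 to 10.3 CPM in MIS/MIS, Krt14 at 16.8 to 31.0 and 5.08 to 15.3 CPM. The 3 basal markers summed to 35.6 to 51.0 and 12.0 to 27.7 CPM with none at 0. Of these 3, Trp63 differed the other way, with a log2 fold change of 0.22. Tlr2 is highest in a basal type, and the part of these markers in its difference was not tested. In basal cells Tlr2 differed the other way, by 0.26 (95% interval -0.55 to 1.07), a direction that turned with thinned cells (-0.23) and without MT1301 (-0.025). The difference between the classes was 1.19 (0.29 to 2.09, unadjusted p = 0.0138 and adjusted p = 0.978 by limma), and 0 of 15942 genes were called for it, with 703 at an unadjusted p under 0.05. In secretory cells Tlr2 was at 2.20, 2.20 and 2.43 CPM in the WT/WT and 2.59, 2.21 and 1.61 CPM in the MIS/MIS mice (-0.08, 95% interval -0.54 to 0.39).

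**Figure D4:**
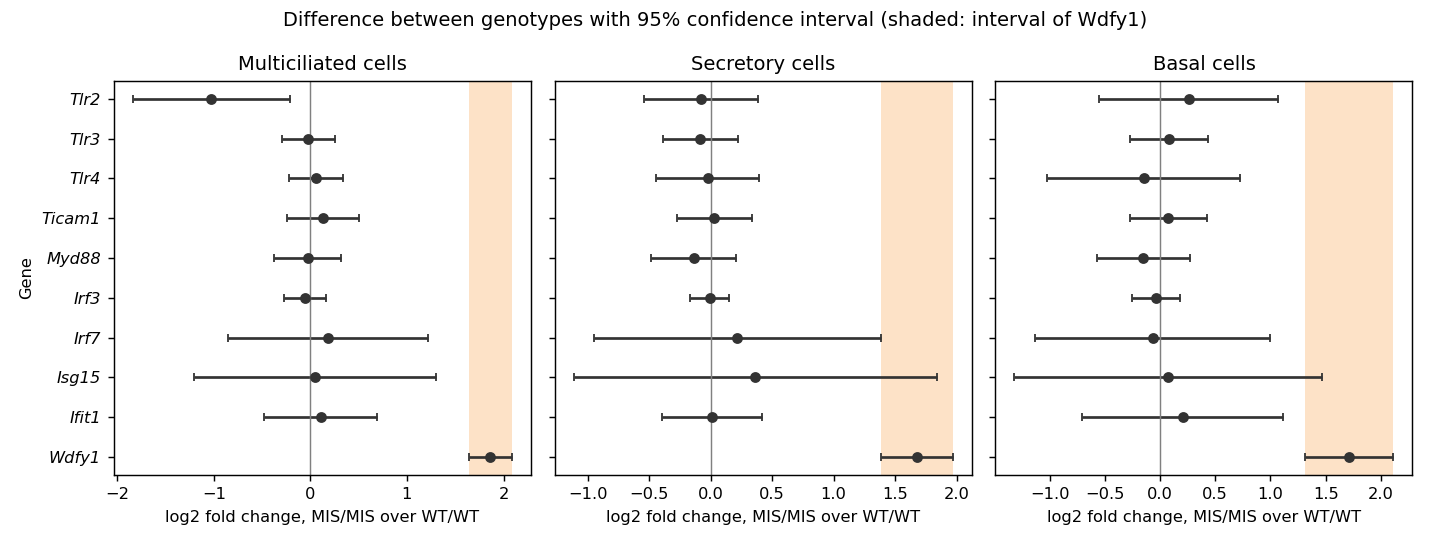
Log2 fold change between MIS/MIS and WT/WT mice (horizontal) for each gene in the 3 classes, with its 95% confidence interval from limma. The shaded band is the interval of Wdfy1. The intervals of Isg15 reach into the band in secretory and basal cells, and the other members' intervals end below it or, for Irf7 in secretory cells, at 1.38 where the band begins.

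Isg15, Irf7 and Ifit1 spread widely between mice of the same genotype. In multiciliated cells Isg15 was at 15.5, 22.9 and 45.7 CPM in WT1, WT2 and WT3 and at 26.4, 12.6 and 51.4 CPM in MT1301, MT1306 and MT1383. In secretory cells it was at 28.3, 29.2 and 81.9 CPM and at 60.2, 22.1 and 103.2 CPM. In basal cells it was at 37.5, 100.2 and 124.6 CPM and at 68.4, 50.1 and 175.0 CPM. MT1383 was highest and WT3 second in each class, 1 mouse of each genotype, and the highest mouse was 4.08, 4.66 and 4.67 times the lowest in multiciliated, secretory and basal cells. The log2 fold changes were 0.05 (95% interval -1.21 to 1.30), 0.36 (-1.11 to 1.84) and 0.07 (-1.32 to 1.47), so the secretory interval holds both no difference and one of 1.68, that of Wdfy1, and the basal interval ends below the 1.71 of Wdfy1 there. Leaving out single mice moved these values. In secretory cells the fold change of Isg15 was -0.13 without MT1383, 0.85 without WT3, 0.99 without MT1306 and 0.11 to 0.25 without each of the others. In basal cells it was -0.45 without MT1383, -0.41 without WT1 and 0.23 to 0.45 without each of the others, and in multiciliated cells it ranged from -0.52 to 0.52. WT1, with the lowest level in basal cells, is the mouse whose basal cells were mostly Basal4, a type with 32.1 ± 18.1 CPM of Isg15 (n = 4). The part of this makeup in the level of Isg15 was not tested. In Basal1 cells alone Isg15 was at 172.0, 205.0 and 269.0 CPM in WT1, WT2 and WT3 and at 88.5, 142.9 and 384.6 CPM in MT1301, MT1306 and MT1383.

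Irf7 had the same order at its top. It was at 16.5, 24.5 and 39.7 CPM in the WT/WT and 33.4, 14.9 and 47.4 CPM in the MIS/MIS multiciliated cells, and the highest mouse was 3.18 to 3.80 times the lowest over the 3 classes. Ifit1 in multiciliated cells was at 163.5, 188.2 and 274.0 CPM and at 222.7, 161.5 and 319.1 CPM. In secretory cells its highest mouse was only 1.49 times its lowest. The SD between mice was at the percentiles 98.0, 98.7 and 94.5 of all genes for Isg15, 96.4, 97.4 and 89.3 for Irf7 and 85.6, 72.4 and 85.1 for Ifit1, in multiciliated, secretory and basal cells.

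The same mice stood apart within single cell types. Among the 12 types with at least 20 cells of MT1383, this mouse was highest in 11 for Ifit1, 9 for Irf7 and 7 for Isg15, and in 0 to 2 for the other 6 genes. Wdfy1 too was highest in this mouse in 11 of the 12 types. In the summed multiciliated, secretory and basal cells MT1383 was highest for 17.1%, 20.3% and 21.5% of all genes tested. No such share was taken within types. In Secretory1 cells Isg15 was at 42.1, 42.1 and 110.0 CPM in the WT/WT mice and at 84.9, 34.9 and 111.9 CPM in the MIS/MIS mice. Of the 9 types with all 6 mice, every MIS/MIS mouse was above every WT/WT mouse in 9 for Wdfy1 and in 0 for each of the 9 genes, against 5.49% of all pairs of a tested gene and a type. Every MIS/MIS mouse was below in 1 type each for Tlr2 and Myd88 and in 0 for the other 7 genes, or 2 of 81 pairs, against 3.4% of all pairs. MT1383 also had the lowest depth per cell, and the part of depth in its levels was not tested. Thinned to 5000 UMIs, secretory cells with Isg15 made up 9.80% to 24.2% in WT/WT and 9.46% to 31.8% in MIS/MIS mice. For Wdfy1 these ranges were 9.87% to 11.8% and 27.0% to 32.1% and did not overlap.

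Other genes of the interferon response followed these mice. Of 38 tested genes in the list of other interferon-stimulated genes, 0 were called in any class, with 0, 0 and 1 at an unadjusted p under 0.05 by limma in multiciliated, secretory and basal cells. Their median SD between mice was 0.49, 0.50 and 0.66 on the log2 scale, against 0.17, 0.15 and 0.22 for all genes tested. MT1383 was the highest mouse for 22, 30 and 31 of the 38, or 57.9%, 78.9% and 81.6%, against 17.1%, 20.3% and 21.5% of all genes. MT1383 and WT3 were the highest pair for 26, 22 and 19 of the 38, and for 7.18%, 6.05% and 7.2% of all genes, a count chosen after the levels had been seen. The median gene of the list was 0.44, 0.49 and 0.72 above its mean over mice in MT1383, with values of -0.27, -0.41 and -0.37 in MT1306 and -0.23, -0.17 and -0.56 in WT1, on the scale of log2(CPM + 0.5). The median fold change of the list was 0.08, 0.17 and 0.03 in the 3 classes, and it was -0.16, -0.10 and -0.37 without MT1383, 0.27, 0.34 and 0.18 without WT3, and 0.26, 0.45 and 0.22 without MT1306. It was also below 0 without WT1 or WT2 in multiciliated cells (-0.03 each) and without WT1 in basal cells (-0.20). The median depth per cell was 21328 UMIs in MT1383 and 34618 UMIs in WT3, where the list was high. It was 35191 and 35383 UMIs in WT1 and MT1306, where the list was low, and 27481 and 33912 UMIs in WT2 and MT1301. The part of depth in these levels was not tested. Culture and mouse cannot be told apart, since each mouse is 1 library.

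**Figure D5:**
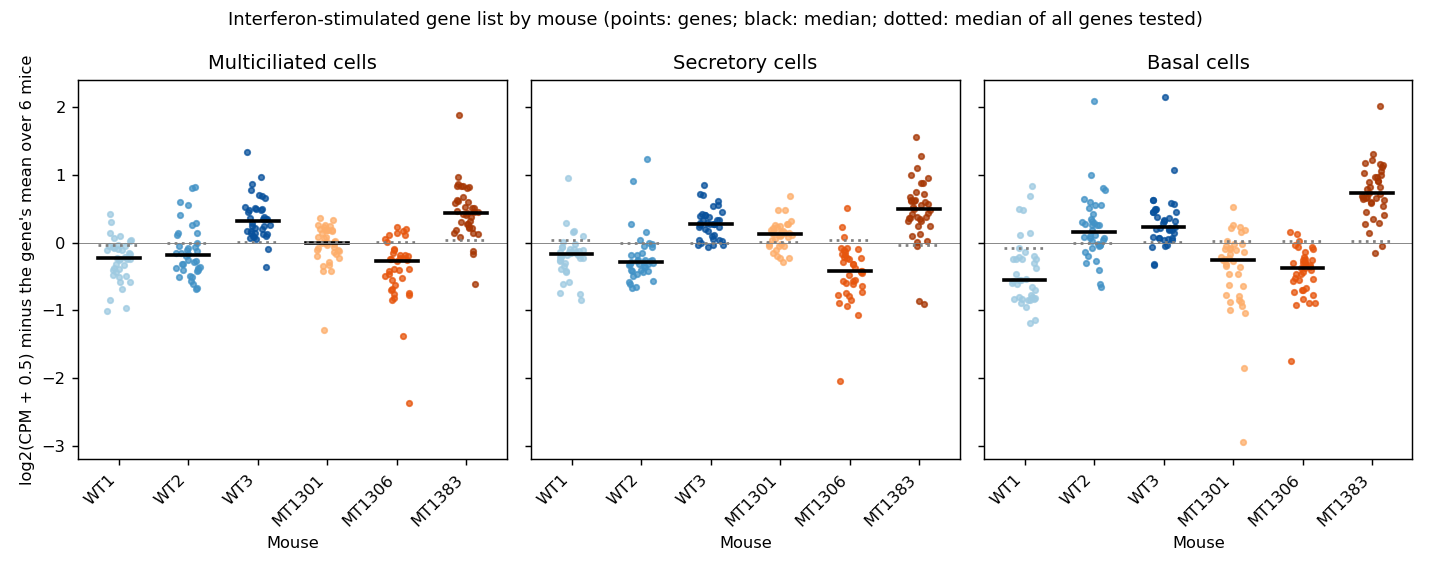
Level of 38 interferon-stimulated genes in each mouse relative to the gene's mean over 6 mice (vertical, log2 scale), with points for genes, black bars for their median and dotted bars for the median of all genes tested. MT1383 and WT3 lie above 0 in each class and MT1306 and WT1 below it, so both genotypes hold high and low mice.

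The most abundant genes of that list are membrane proteins that block virus entry. Ifitm1 was at 1683 to 3299 CPM in the WT/WT and 2284 to 3002 CPM in the MIS/MIS multiciliated cells (log2 fold change 0.02 ± 0.26, SE), and Ifitm3 at 828.5 to 1468 and 920.0 to 1224 CPM (-0.04 ± 0.20). Over the cell types, 14 of the 38 genes were highest in Basal1, the type where Isg15 and Irf7 were highest, 6 in ionocytes, 5 in Multiciliated4, 4 in Basal7 and 9 in 5 other types. Ionocyte levels are pooled over 28 cells, 19 from MT1383, 7 from WT3 and 2 from WT1, so type and mouse cannot be told apart there. The interferon genes that were measured were near the limit of detection. Of 9 listed, 3 were measured, with 10 UMIs of Ifnk, 5 of Ifng and 2 of Ifne in all cells. Ifnb1, Ifna1, Ifna2, Ifna4, Ifnl2 and Ifnl3 were absent from the genes given and have no level here. Interferon receptors and their kinases and factors were detected, with 0 of 12 called in any class and median fold changes of 0.02, 0.05 and 0.04 in multiciliated, secretory and basal cells. Jak1, the kinase shared by the interferon receptors, was at 50.2 to 64.3 CPM in WT/WT and 55.2 to 66.5 CPM in MIS/MIS multiciliated cells, and Ifngr2, a chain of the interferon gamma receptor, at 36.6 to 41.7 and 33.4 to 37.5 CPM.

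The rest of the pathway was described by lists of the same kind, and none of their genes was called. Of the partners of the receptors, 6 of 8 were tested, with 4, 3 and 5 above 0 in multiciliated, secretory and basal cells. Over all genes tested, 51.5%, 48.4% and 48.0% were above 0 in these classes. Cd14, which hands lipopolysaccharide to Tlr4, was at 157.7 to 168.5 CPM in WT/WT and 114.7 to 169.5 CPM in MIS/MIS multiciliated cells (-0.28 ± 0.14, SE, limma adjusted p = 0.896), and Hsp90b1, a chaperone of the receptors, at 384.4 to 490.4 and 461.1 to 563.6 CPM (0.16 ± 0.12). Of 20 adaptors and kinases, 18, 17 and 17 were tested and their median fold changes were -0.01, -0.02 and 0.01. Irak1, the kinase that Myd88 recruits, was at 50.1 to 56.2 CPM in WT/WT and 50.3 to 52.4 CPM in MIS/MIS multiciliated cells (-0.10 ± 0.07), and Tab2 differed by -0.07 ± 0.11. Of 12 sensors of nucleic acid in the cytosol, 9 were tested, with 8, 9 and 5 above 0, and MT1383 was the highest mouse for 5, 4 and 6 of them. With 1 mouse left out, 4 to 9, 6 to 9 and 1 to 7 sensors were above 0, and without MT1383 they were 4, 8 and 1. Eif2ak2, the kinase that double-stranded RNA activates, differed by 0.01 ± 0.11 and Trim25 by 0.11 ± 0.11 in multiciliated cells. Of 6 other interferon regulatory factors, 5 were tested in each class, and Irf2 differed by 0.07 ± 0.10 in multiciliated cells. Among 20 targets of NF-kB, 12 were tested in multiciliated cells and 9 of them were below 0, with a median of -0.25 that was -0.05 without MT1306, -0.16 without WT2 and -0.41 without MT1383. Nfkbia, the inhibitor that NF-kB induces, was at 96.4, 100.7 and 129.5 CPM in WT/WT and 85.5, 74.998 and 79.7 CPM in MIS/MIS multiciliated cells. The genotypes did not overlap, at -0.46 ± 0.11 (SE, unadjusted p = 0.00406 and adjusted p = 0.896 by limma). It differed by 0.03 ± 0.22 in secretory and -0.07 ± 0.10 in basal cells, and Nfkb1 by 0.03 ± 0.08 in multiciliated cells.

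The level of each of the 9 genes relative to Wdfy1 was compared directly. The log2 ratio of the gene to Wdfy1 was lower in MIS/MIS than in WT/WT mice for all 27 pairs of gene and class, by 1.35 (Isg15 in secretory cells) to 2.93 (Tlr2 in multiciliated cells). In a 2-sided exact permutation test over the 6 mice, 26 of the 27 reached p = 0.1, the smallest that 3 against 3 mice allows, and Isg15 in secretory cells gave p = 0.3. Adjusted over the 27, these were 0.104 and 0.3. Wdfy1 itself was known to differ between the genotypes, so the ratios chiefly carry its own difference. Any gene that did not move would give a lower ratio in MIS/MIS mice, so no conclusion on the 9 genes is drawn from this test.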

How the data were processed

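Droplet 3′ scRNA-Seq was done by the authors on 3 WT/WT and 3 MIS/MIS tracheal cultures. The labels name Cell Ranger 7.1.0 and mm10, and the methods another Cell Ranger version. The authors filtered cells in Seurat (2500 to 7500 genes, at most 25% mitochondrial), although cells over 7500 genes remain in the table, clustered them and deposited whole-number UMI counts per gene and cell with cluster names. Every cell's total equalled the authors' own (23871 cells). No doublet caller was run. Animal numbers in the table (MT1301, MT1306, MT1383) identify a genotype but no single GEO title. Each library is taken as 1 mouse, from the labels, and p-values measure the spread between these samples.

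UMIs were summed per mouse and class. The table's separator is mistyped, and its values were read as whole numbers. The negative binomial test planned was not run. In its place limma 3.58.1 in R 4.3.3 was used (voom weights, TMM factors with trims of 0.3 and 0.05). Genes needed 10 counts in a library of median size in 3 mice and a total of 15. The sums held 13516848 to 73192479 UMIs. Adjusted p-values are Benjamini-Hochberg over all genes tested, with a threshold of 0.05, and the script was tested on simulated data. Cell type levels are means over mice with at least 20 cells. Thinning drew 5000 UMIs per cell and left out 0 cells. Positions are from GENCODE M21.

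The 9 members and the gene lists were chosen with earlier results of these data known. From each list the genes past the threshold were named, and otherwise the 2 with the highest mean CPM, and for each member the 2 genes most alike over cell types. One gene that this rule names is not reported here. Basal keratins, and genes named for a count of few UMIs, were chosen after their values were seen.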

Additional observations from a re-analysis of the deposited data

How the results depend on the processing

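No member was called under any setting, and 198 of 218 fold changes kept their direction and side of the threshold under settings other than leaving out a mouse. Calls over all genes changed as follows. With equal subcluster composition, 2 genes were called in multiciliated and 1 in basal cells, and with Multiciliated3 cells alone 3 were called. With upper-quartile normalization, and without any 1 of the 6 mice, 0 genes were called in secretory cells. Wdfy1 there had an adjusted p of 0.0505 (limma) in the former. The fold changes that changed sign follow. With equal composition they were, in multiciliated cells, -0.12 for Ticam1 and 0.11 for Myd88, in secretory cells -0.0061 for Ticam1 and 0.02996 for Irf3, and in basal cells -0.02 for Ticam1, 0.02 for Irf3 and 0.0552 for Irf7. With thinned cells they were 0.085 for Tlr3 in multiciliated cells, 0.36 for Tlr2 and 0.12 for Tlr4 in secretory cells, and -0.23 for Tlr2, 0.0456 for Tlr4 and 0.23 for Irf7 in basal cells. In Multiciliated3 alone they were 0.0198 for Myd88, -0.0631 for Irf7 and -0.27 for Isg15. Irf3 was 0.0025 in secretory cells with upper-quartile normalization, and Tlr3 0.0046 in multiciliated cells with limma-trend. The cause was not tested.

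Leaving out each mouse in turn turned the direction of 43 of 180 fold changes, and their results are given as lowest to highest value. In multiciliated cells these were -0.089 to 0.093 for Tlr3, -0.0598 to 0.12 for Tlr4, -0.022 to 0.22 for Ticam1, -0.16 to 0.0403 for Myd88, -0.12 to 0.00014 for Irf3, -0.22 to 0.61 for Irf7, -0.52 to 0.52 for Isg15, -0.12 to 0.35 for Ifit1. In secretory cells these were -0.26 to 0.088 for Tlr2, -0.23 to 0.032 for Tlr3, -0.18 to 0.19 for Tlr4, -0.051 to 0.16 for Ticam1, -0.28 to 0.014 for Myd88, -0.0395 to 0.024 for Irf3, -0.17 to 0.76 for Irf7, -0.13 to 0.99 for Isg15, -0.17 to 0.17 for Ifit1. In basal cells these were -0.025 to 0.57 for Tlr2, -0.37 to 0.24 for Tlr4, -0.087 to 0.0059 for Irf3, -0.57 to 0.30 for Irf7, -0.45 to 0.45 for Isg15, -0.19 to 0.43 for Ifit1. Without 1 mouse the log2 fold change of Tlr2 in multiciliated cells was -1.23 to -0.79, and that of Wdfy1 was 1.80 to 1.95.
Tlr2 in multiciliated cells rests on 10 to 44 UMIs per mouse. No paired analysis was possible because the numbers of the MIS/MIS mice are shared with no WT/WT mouse. The planned negative binomial tests were not run, and limma, which was not the planned test, took their place. limma-trend and the removal of collagen cells were chosen after seeing the data.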
